A study of Mus musculus and Acomys cahirinus with 25 samples.

Results

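The 50 genes described here encode the machinery of DNA replication and cell division, and were followed through wound-induced hair neogenesis, the formation of new hair follicles in a healing skin wound, in laboratory mice and spiny mice. They were taken as a list of symbols and matched to the rows of every count file, and all 50 were found among the 24500 gene symbols of the 25 libraries. By role, 12 act in origin licensing and S phase entry, 5 in DNA synthesis and nucleotide supply, 6 are mitotic cyclins, Cdk1 and factors of anaphase promotion, 7 belong to the spindle checkpoint and kinetochore, 4 are mitotic kinases or survivin, 8 are spindle motors and spindle proteins, 3 act in cytokinesis, 3 are transcription factors and 2 are chromosome proteins that mark dividing cells. The 17 members of the licensing and DNA synthesis roles are called S phase members below, and the 28 members from the mitotic cyclins to cytokinesis are called mitotic members.

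A dividing cell loads the MCM helicase onto replication origins and copies its DNA with PCNA as the sliding clamp and ribonucleotide reductase (Rrm1, Rrm2) as the source of deoxynucleotides. It then enters mitosis through Cdk1 and its cyclins, with Plk1 and the Aurora kinases acting on the spindle. Replication genes are transcribed under E2F factors in late G1 and S phase, and mitotic genes later under the DREAM and MYB-MuvB complexes and FOXM1, through promoter elements that include the CHR element and the CCAAT box. In skin, dividing keratinocytes sit mainly in the basal layer and the hair matrix.

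The laboratory mouse libraries were made from full thickness back wounds at post-wound day (PWD) 14 of mice wounded at 4 weeks of age. This age is that of the study's methods, and its results give 3 weeks for the first wounds described. They comprised wild-type epidermis of the wound center (2) and wound margin (2), wild-type dermis of the wound center (5) and wound margin (2), and wound center dermis of K14-Cre-Twist1 mice (2, called KO). The labels give no strain. The study worked mainly with C57BL/6J, bred the KO by crossing a conditional Twist1 line with a K14-Cre line, and took wild-type Twist1+/+ mice as the reference for it. K14-Cre acts in keratinocytes, so the KO dermis lay under an epidermis targeted for Twist1 and its own Twist1 level checks no deletion. Twist1 was at 73.4 and 43.97 CPM (counts on the gene, scaled to the library's total of reads on genes) in the KO dermis and between 36.3 and 159 CPM in the 5 wild-type center libraries. The spiny mouse (Acomys cahirinus) libraries, all wild type, came from animals wounded at 2 months of age. They covered unwounded skin (PWD0) and whole wounds labelled PWD14, 21 and 28. In that order there were 1, 2, 2 and 1 libraries of epidermis and 2, 1, 2 and 1 of dermis. The days are those of the labels, and the study's own sample list gives slightly different wound days for the same spiny mouse libraries. Both sexes were used, the layers were parted by hand, after trypsin in the spiny mouse, and spiny mouse reads were aligned to the laboratory mouse genome. The labels do not tell the 5 wild-type center dermis libraries apart, and the study's own comparisons set replicates 1 and 2 against the margin and replicates 3 to 5 against the KO. The laboratory mouse epidermis was read paired-end and the other libraries single-end, so layer and read type cannot be told apart in that species.

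A laboratory mouse library held 19413261 to 86532134 reads on genes, and a spiny mouse library 5669760 to 34751956. These were 57.7 to 69.8% of all reads in the laboratory mouse and 24.4 to 52.9% in the spiny mouse. In spiny mouse epidermis the share was 26.8 and 24.4% at PWD14 and 34.1 and 38.3% at PWD21. In its dermis it was 27.0 and 32.8% at PWD0 and 44.9 and 52.9% at PWD21. The part of this difference in the comparisons of days was not tested. The members took 3102 to 118370 reads of a library, and 3 counts, taken as the detection floor, were worth 0.0347 to 0.529 CPM, which covers counting error only. KO replicate 2 stood apart, with 9 members at 0 counts (Ccne2, Cdc6, Cdt1, Mcm10, Tyms, Ccnb1, Aurka, Hmmr and Mybl2) in 21697643 reads. It held 29008 CPM of the 7 suprabasal keratinocyte markers, against 6.95 to 391 CPM in the other wound center dermis libraries. In the laboratory mouse epidermis, margin replicate 1 had 13125 genes with a read and the other 3 libraries 15199 to 15741. Suprabasal keratinocyte markers summed to 23596 to 197999 CPM in the epidermis libraries and 15 fibroblast markers to 79153 to 199300 CPM in the dermis libraries. In bulk RNA, fewer cycling cells and less RNA per cycling cell cannot be told apart.

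The promoters were searched for strings of the control elements named above. RefSeq promoter windows of GRCm38.p6, 250 bases before to 50 bases after the start, were matched for 43 of the 50 members. The CHR element was searched as TTTGAA, the CCAAT box as CCAAT, and the E2F site as TTTCGCGC, TTTGGCGC, TTCCCGCC or TTGGCGCC, all on both strands. The E2F strings can overlap each other, and TTGGCGCC can overlap a CCAAT box read on the other strand. TTTGAA occurred in 22 of the 43 members (51.2%) and in 20.2% of all 27025 genes with a window, and it was found in 18 of 24 mitotic and 2 of 15 S phase members. CCAAT occurred in 31 members (72.1%) and 41.1% of all genes, and it was found in 19 of 24 mitotic and 10 of 15 S phase members. TTTGAA and CCAAT together occurred in 20 members (46.5%) and 7.97% of all genes. Any of the 4 E2F strings occurred in 8 members (18.6%) and 4.05% of all genes, and 6 of these members were S phase members. A match describes the letters and not a bound site.

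The following stretches are shown for members on which the comparisons below turn, among them Prc1 and Mki67. They are taken from the promoter windows and written 5′ to 3′ on the gene's strand, with CHR elements (TTTGAA or TTCAAA) and CCAAT boxes (CCAAT or ATTGG) in capitals. Prc1 has 2 starts with a window each, and its stretch runs past the first of them, while the other stretches lie upstream of the start.
Mki67 (chr7:135716457-135716582, minus strand): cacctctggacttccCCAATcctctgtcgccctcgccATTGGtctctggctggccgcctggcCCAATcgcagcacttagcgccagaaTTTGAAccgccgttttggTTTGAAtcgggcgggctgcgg
Top2a (chr11:99024192-99024431, minus strand): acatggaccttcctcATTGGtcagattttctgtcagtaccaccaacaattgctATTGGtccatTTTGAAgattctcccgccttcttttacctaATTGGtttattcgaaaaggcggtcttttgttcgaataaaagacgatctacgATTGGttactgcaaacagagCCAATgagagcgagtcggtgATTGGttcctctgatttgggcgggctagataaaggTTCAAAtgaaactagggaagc
Prc1 (chr7:80294399-80294466, plus strand): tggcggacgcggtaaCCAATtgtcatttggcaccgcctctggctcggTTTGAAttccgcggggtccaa
Cdk1 (chr10:69352913-69353135, minus strand): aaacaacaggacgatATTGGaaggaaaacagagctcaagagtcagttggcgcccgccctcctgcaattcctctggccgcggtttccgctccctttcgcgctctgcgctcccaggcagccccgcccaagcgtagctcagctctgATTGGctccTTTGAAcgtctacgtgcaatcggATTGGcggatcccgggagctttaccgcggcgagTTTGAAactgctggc
Kif11 (chr19:37376322-37376381, plus strand): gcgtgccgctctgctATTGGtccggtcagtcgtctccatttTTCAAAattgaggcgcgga

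For the replication genes Mcm5 and Mcm6, subunits of the same helicase, the capitals mark E2F strings, and in both genes TTTCGCGC and TTTGGCGC on opposite strands overlap in 1 run of capitals. Strings of the other kind stay in lower case. The Cdk1 stretch above holds the E2F strings TTGGCGCC and TTTCGCGC, and the Mcm6 stretch holds a CCAAT box.
Mcm5 (chr8:75109341-75109382, plus strand): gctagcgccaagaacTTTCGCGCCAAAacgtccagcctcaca
Mcm6 (chr1:128359730-128359830, minus strand): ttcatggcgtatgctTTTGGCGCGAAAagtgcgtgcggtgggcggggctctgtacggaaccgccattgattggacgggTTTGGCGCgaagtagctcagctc

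The summed level of the 50 members was 417 and 415 CPM in the laboratory mouse wound center epidermis, 632 and 1368 CPM in the margin epidermis, 1711, 1835, 1659, 1512 and 2005 CPM in the 5 wild-type wound center dermis libraries, 1629.6 and 2156 CPM in the margin dermis and 1252 and 1079 CPM in the KO dermis. The wound center epidermis was the lowest group of that species, its 2 libraries lay close together, and the 2 margin epidermis libraries lay far apart. In the spiny mouse epidermis the sum was 1044 CPM at PWD0, 816 and 792 CPM at PWD14, 1315 and 1474 CPM at PWD21 and 1596 CPM at PWD28. In its dermis the sum was 547 and 752 CPM at PWD0, 1088 CPM at PWD14, 1448 and 1284 CPM at PWD21 and 1131 CPM at PWD28. In CPM the epidermal low point was PWD14 and the dermal low point was unwounded skin. The tests use TMM scaling, whose epidermal factors were 1.22 at PWD0 and 0.720 and 0.757 at PWD14. With the sums divided by these factors, unwounded skin was the low point of both layers.

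**Figure D1:**
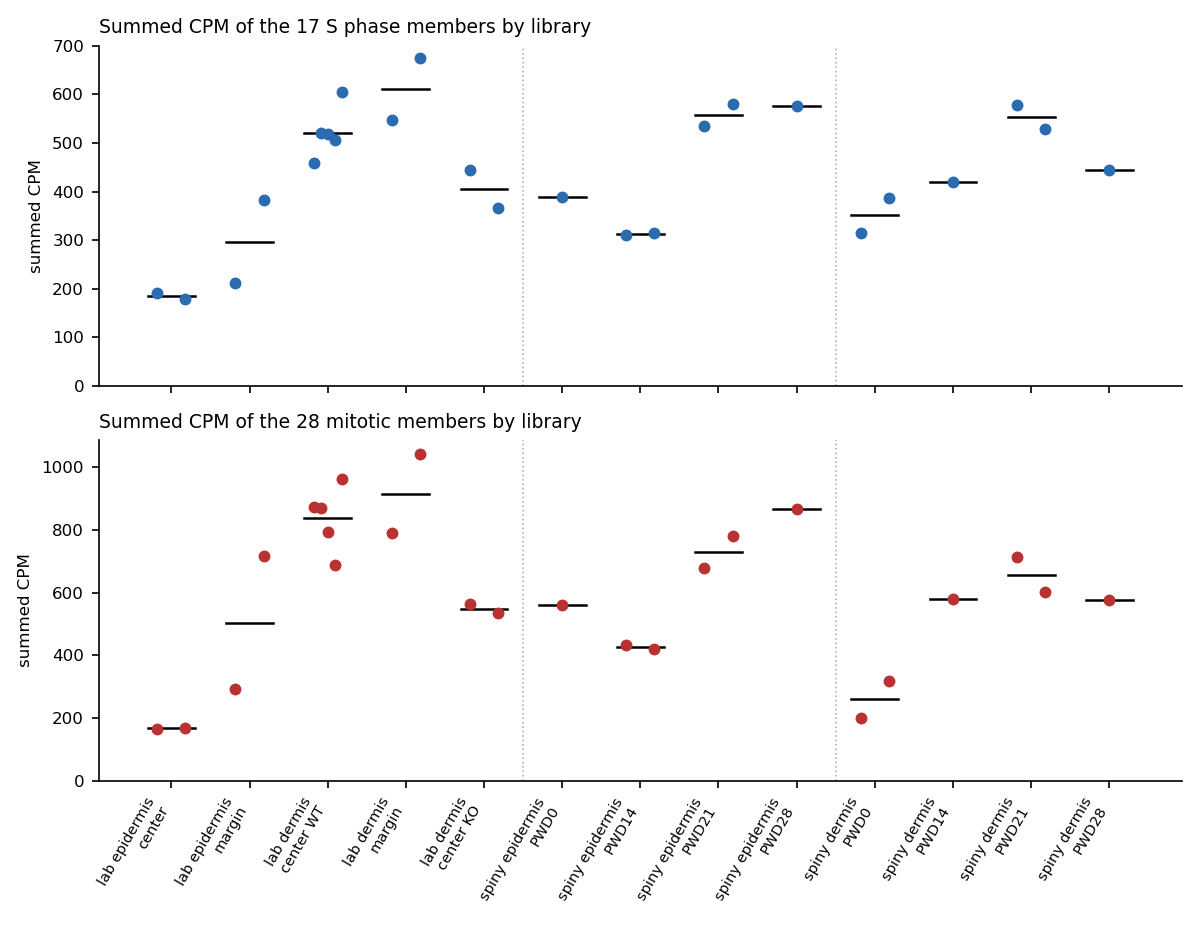
Summed CPM (vertical axes, from 0) of the 17 S phase members and the 28 mitotic members in every library, by group. Points are libraries and lines are group means. The mitotic sum was 166 and 168 CPM in the laboratory mouse wound center epidermis against 292 and 716 CPM in the margin, and 201 and 319 CPM in unwounded spiny mouse dermis against 577 to 712 CPM in its wounds.

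S phase members made up 45.8 and 43.2% of the summed level in the wound center epidermis, 33.4 and 27.9% in the margin epidermis and 26.8 to 35.5% in the 9 dermis libraries of the laboratory mouse. In unwounded spiny mouse dermis they made up 57.5 and 51.4%, and in the other spiny mouse libraries 36.1 to 41.2%. The 2 groups with the least mitotic RNA had the largest S phase shares. This is partly built in, because the mitotic members are part of the total. These shares describe the libraries, with no test.

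**Figure D2:**
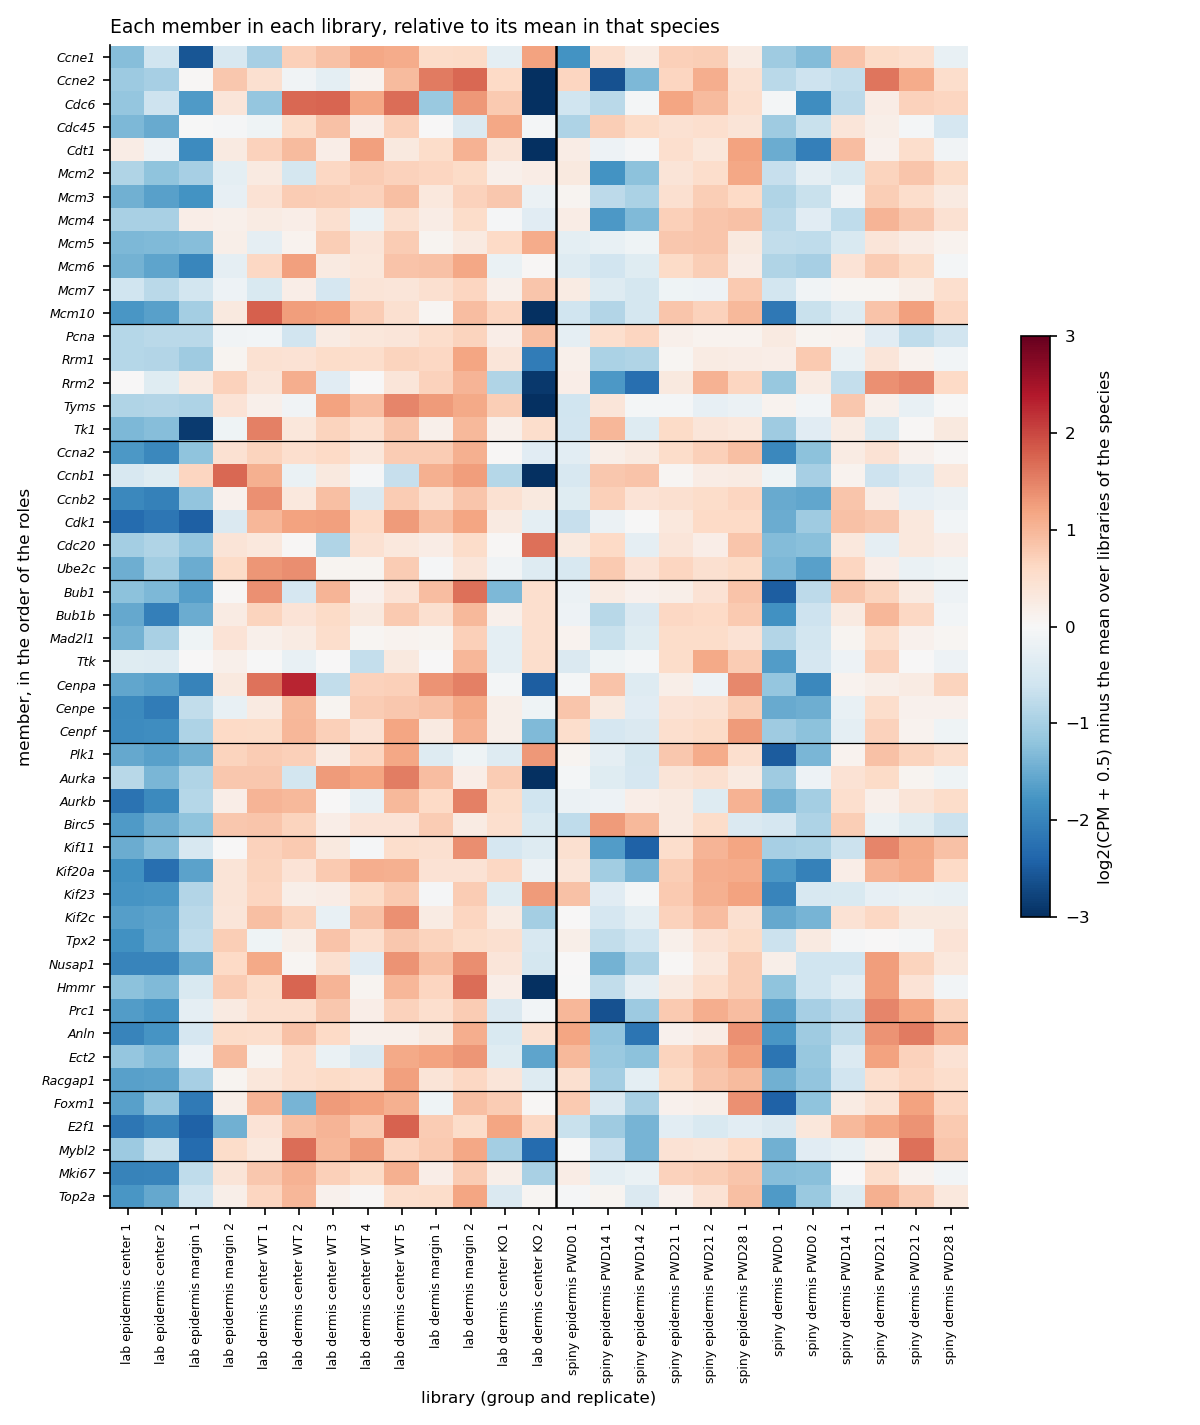
Level of each of the 50 members (rows, by role) in each library (columns), as log2(CPM + 0.5) minus the member's mean over the libraries of the same species. The 2 wound center epidermis libraries and the 2 unwounded spiny mouse dermis libraries are low for most members, and the darkest cells of KO replicate 2 are members at 0 counts.

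The first comparison asked how the wound center, where hair follicles form anew, differs from the margin. In the epidermis, 48 of the 50 members had a lower fitted level in the center, beside 50.7% of all genes, with a median log2 fold change of -1.499, against -0.02 over all 14165 genes tested. By the quasi-likelihood test of edgeR with Benjamini-Hochberg adjustment (FDR under 0.05), 1 member fell, beside 0.360% of all genes called lower, and none rose, beside 0.882% called higher. Without adjustment, 29 members had a p under 0.05, all lower, beside 10.4% of all genes lower at that p and 13.1% higher. The member called was Prc1, which bundles the microtubules of the central spindle, at 14.2 and 13.3 CPM in the center and 38.3 and 56.2 CPM in the margin (log2 fold change -1.88, SE 0.26, FDR = 0.0427). Its center libraries lay below both margin libraries.

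Mki67, the classical marker of cycling cells, was at 28.4 and 28.8 CPM in the center and 67.8 and 151 CPM in the margin (log2 fold change -2.02, SE 0.37, FDR = 0.0715). In the parentheses that follow, the first value is a log2 fold change. Top2a, the topoisomerase that untangles chromosomes, was at 25.0 and 28.7 CPM in the center and 56.2 and 95.7 CPM in the margin (-1.59, SE 0.29, FDR = 0.0710). For both, the center libraries lay close together and below both margin libraries, which were far from each other, and neither passed the test.

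In other members the regions overlapped, or margin replicate 1 lay beside the center. Cdk1, the kinase that starts mitosis, was at 4.83 and 5.37 CPM in the center and 4.36 and 19.1 CPM in the margin. Plk1, a kinase of spindle assembly, was at 3.55 and 3.27 CPM against 3.80 and 18.02 CPM. In each, margin replicate 2 alone stood high. Bub1, a checkpoint kinase of the kinetochore, was at 3.28 and 2.95 CPM in the center and 2.32 and 8.51 CPM in the margin, and the helicase subunit Mcm5 at 10.6 and 10.9 CPM against 11.1 and 31.4 CPM. E2f1, an activator of replication genes, was at 2.28 and 2.68 CPM against 1.81 and 4.09 CPM, and Foxm1, an activator of mitotic genes, at 4.18 and 5.90 CPM against 2.83 and 15.8 CPM. For both factors the lowest and the highest value came from the 2 margin libraries.

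Ccnb1, a cyclin partner of Cdk1, was at 3.39 and 3.73 CPM in the center and 7.91 and 17.2 CPM in the margin. Kif11, the motor that separates the spindle poles, was at 8.64 and 10.1 CPM against 17.9 and 25.4 CPM. Racgap1, a regulator of the cleavage furrow, was at 8.70 and 8.79 CPM against 13.8 and 29.7 CPM, and Rrm2 at 21.5 and 16.4 CPM against 25.7 and 35 CPM. These 4 did not overlap between the regions, and their log2 fold changes lay between -1.95 and -0.78 with FDR values from 0.0957 to 0.167.

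Margin replicate 2 lay above both center libraries for all 50 members (40.2% of all genes tested), and margin replicate 1 lay above both for 32 and below both for 16 (35.4% of all genes above and 55.9% below). Both center libraries were below both margin libraries for 32 of 50 members, 22 of the 28 mitotic and 8 of the 17 S phase members, beside 23.2% of all genes. The role medians of the log2 fold change were -0.71 for DNA synthesis, -0.92 for origin licensing, -1.51 for the checkpoint, -1.59 for the mitotic cyclins, -1.86 for the mitotic kinases, -1.86 for the spindle proteins and -1.99 for cytokinesis. Ccne1 and Cdt1, which act before S phase, were the members with a positive value, 0.04 and 0.30.

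The count depended on the libraries and the test. Without margin replicate 1, 47 members were called lower, beside 17.2% of all genes. Without margin replicate 2, 22 were called lower and 3 higher, beside 23.4% and 27.5% of all genes. In both fits the lone margin library is assumed to vary like the center. DESeq2 called 24 and the likelihood ratio test of edgeR 22, all lower, beside 4.21% and 3.93% of all genes. The call of Prc1 was lost without either center library, with scaling by library size alone, with the older edgeR 3 estimate and with offsets for transcript length and GC content, each of which called no member. The sum of 15 fibroblast markers was 7556 and 6239.8 CPM in the center and 2901 and 1130.1 CPM in the margin, and that of 4 wound keratinocyte markers 12053 and 17488 CPM against 5247 and 9235 CPM. Their part in the result was not tested.

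In the wild-type dermis no member passed the test between the regions. The quasi-likelihood test of edgeR called none, beside 0.116% of all 14698 genes higher and 0.735% lower, and 3 members in each direction had an unadjusted p under 0.05, beside 5.11% of all genes higher and 10.7% lower at that p. DESeq2 and the likelihood ratio test each called 1. The median log2 fold change was -0.02 over the members and -0.03 over all genes. Mki67 was at 201 and 239.9 CPM in the center and 132 and 197 CPM in the margin (0.52, SE 0.22, FDR = 0.276), and Plk1 at 19.3 and 18.6 CPM against 8.48 and 10.3 CPM (1.11, SE 0.49, FDR = 0.303). For both, the center libraries were above both margin libraries without passing the test.

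Top2a was at 132 and 170.4 CPM in the dermal center and 124 and 193 CPM in the margin, Cdk1 at 52.2 and 60.8 CPM against 48.8 and 59.4 CPM, and Kif11 at 40.7 and 43.6 CPM against 35.5 and 67.3 CPM. Racgap1 was at 35.3 and 39.6 CPM against 36.8 and 43.3 CPM, Mcm5 at 23.2 and 30.2 CPM against 29.7 and 33.7 CPM, and Rrm2 at 27.6 and 45.9 CPM against 35.01 and 43.5 CPM. All 6 overlapped between the regions. Center replicate 2 was the lowest of the 4 libraries for Bub1 (22.5 and 5.72 CPM in the center, 16.3 and 27.4 CPM in the margin), Ccnb1 (10.9 and 4.22 CPM, 10.8 and 12.3 CPM) and Foxm1 (28.5 and 4.997 CPM, 12.6 and 26.5 CPM), while E2f1 was at 16.2 and 22.9 CPM against 20.6 and 17.9 CPM. The margin dermis held 845 and 861 CPM of 9 hair matrix and root sheath markers, which summed to 4.31 and 0 CPM in these center libraries. Their part in the result was not tested.

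Whether the region effect differed between the layers was tested as an interaction term. Mki67 (difference of log2 fold changes -2.40, SE 0.47, FDR = 0.0194) and Prc1 (-1.69, SE 0.38, FDR = 0.0338) passed, both with the lower center value in the epidermis, beside 0.135% of all 15531 genes called in that direction. No member passed in the other direction, beside 3.34% of all genes. The median difference was -1.29 over the members and 0.31 over all genes. Without margin epidermis replicate 1, 18 members passed, beside 0.535% of all genes in that direction. Without margin epidermis replicate 2 there were 2, and without any one of the other 6 libraries there was none.

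**Figure D3:**
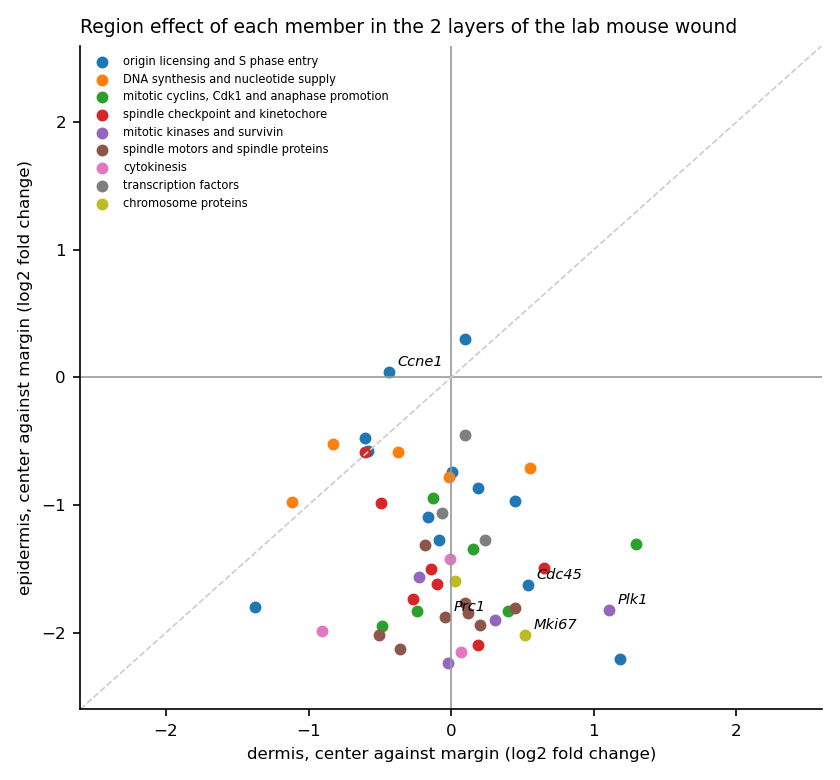
Log2 fold change of wound center against margin for each of the 50 members in the dermis (horizontal axis) and the epidermis (vertical axis) of the laboratory mouse, colored by role, with equal effects on the dashed line. The members scatter around 0 in the dermis, where their median is -0.02, and lie mostly below 0 in the epidermis, where their median is -1.499.

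Between the layers of the wild-type wound center, 31 members were lower in the epidermis than in the dermis and none higher, beside 25.0% of all 15017 genes called lower and 26.8% higher. The member median was -1.58 and the all-gene median -0.08. Mki67 was at 28.4 and 28.8 CPM in the epidermis and 201, 239.9, 190.3, 172 and 241 CPM in the 5 dermis libraries, with no overlap (log2 fold change -2.15, SE 0.22, FDR = 4.41e-05). Mcm10, a replication initiation factor, was at 0.692 and 0.778 CPM in the epidermis and 5.05 to 13.2 CPM in the dermis (-2.79, SE 0.61), and Cdk1 (-2.73, SE 0.30) and E2f1 (-2.64, SE 0.47) were also lower. Rrm2 and Ccnb1 had log2 fold changes of 0.18 (FDR = 0.695) and 0.02 (FDR = 0.978). Without epidermis center replicate 1 the count was 17 and without replicate 2 it was 19, all lower, beside 15% and 14.8% of all genes. This comparison shares the center libraries with those of the regions.

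Wild-type wound center dermis replicates 3 to 5 were the reference for the KO dermis. The quasi-likelihood test of edgeR called no member, beside 0.0494% of all 14163 genes higher and 0.00706% lower, 6 members had an unadjusted p under 0.05, all lower in the KO, beside 4.54% of all genes lower and 6.98% higher at that p, and DESeq2 and the likelihood ratio test called none. The fitted level was lower in the KO for 43 of 50 members and 54.0% of all genes, with a median of -0.69 against -0.07 for all genes. Mki67 was at 129 and 58.2 CPM in the KO and 190.3, 172 and 241 CPM in the wild type (-1.10, SE 0.37, FDR = 0.345), and Rrm2 at 11.2 and 2.44 CPM against 16.7, 21.5 and 27.4 CPM (-1.68, SE 0.69, FDR = 0.408). For both, each KO library lay below the 3 wild-type libraries.

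Kif11 was at 17.6 and 19.2 CPM in the KO and 30.6, 24.4 and 36.2 CPM in the wild type, Cdk1 at 31.1 and 21.02 CPM against 61.3, 39.5 and 64.1 CPM, and Foxm1 at 23.95 and 14.1 CPM against 34.2, 32.6 and 29.5 CPM. These 3 did not overlap either. The share of all genes with both KO libraries below these wild-type libraries was not counted, so no excess is read from this order. Mcm5 was at 42.8 and 60.7 CPM against 46.97, 36.2 and 47.8 CPM, and Plk1 at 8.47 and 28.4 CPM against 13.4, 17.9 and 25.5 CPM, and KO replicate 2 was the highest of the 5 libraries for both. Top2a was at 62.7 and 87.7 CPM against 92.9, 87.03 and 122 CPM, Bub1 at 2.96 and 12.03 CPM against 17.5, 9.12 and 11.2 CPM, Racgap1 at 35.9 and 21.2 CPM against 41.6, 39.7 and 65.6 CPM, and E2f1 at 28.04 and 18.6 CPM against 24.95, 20.9 and 41.8 CPM. Ccnb1 was at 2.49 CPM in KO replicate 1, 0 counts in KO replicate 2 and 6.12, 4.74 and 2.85 CPM in the wild type.

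Against all 5 wild-type wound center libraries, KO replicate 1 lay below the lowest for 20 members, within the range for 29 and above it for 1, beside 14.2% of all genes below and 12.8% above. KO replicate 2, the library with suprabasal keratinocyte markers, lay below for 31, within for 11 and above for 8, beside 33.0% of all genes below and 26.4% above. Without KO replicate 2 no member was called and the median was -0.45, and without KO replicate 1 there were 12 lower and 1 higher, beside 11.9% and 10.5% of all genes. The part of the keratinocyte RNA in these values was not tested.

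**Figure D4:**
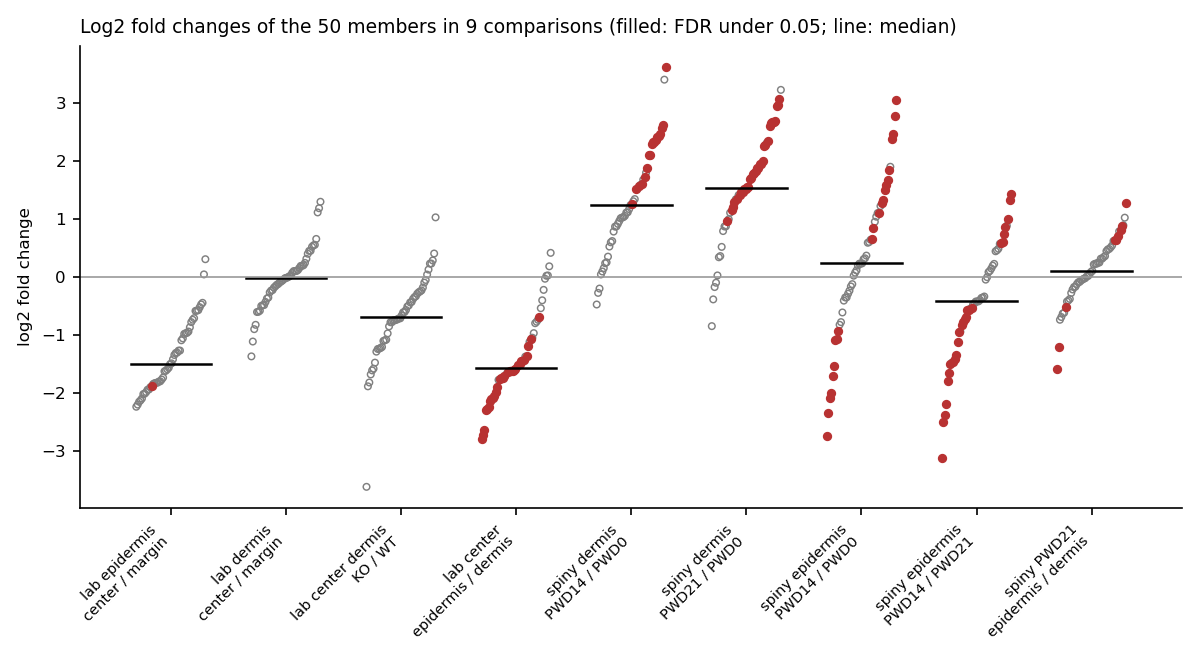
Log2 fold changes of the members by comparison, with filled points for an FDR under 0.05, open points for the others and lines for medians. The medians were -1.499 and -0.02 for the region in epidermis and dermis, -0.69 for the KO, -1.58 for the layers of the laboratory mouse, 1.25 and 1.53 in spiny mouse dermis for PWD14 and PWD21, each against unwounded skin, 0.23 and -0.43 for PWD14 against PWD0 and PWD21 in spiny mouse epidermis, and 0.09 for the layers of the spiny mouse.

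In spiny mouse dermis the members were higher in the wound than in unwounded skin. At PWD21, 33 of 50 members rose against PWD0 and none fell, beside 12% of all 14481 genes called higher and 14.2% lower, with medians of 1.53 over the members and 0.03 over all genes. Those that rose were 3 of 3 in cytokinesis, 2 of 2 chromosome proteins, 5 of 6 mitotic cyclins and anaphase factors, 9 of 12 in origin licensing, 2 of 3 transcription factors, 5 of 8 spindle proteins, 4 of 7 in the checkpoint, 2 of 4 mitotic kinases and 1 of 5 in DNA synthesis. Mki67 was at 9.35 and 9.55 CPM at PWD0, 23.8 CPM at PWD14, 34.2 and 25.4 CPM at PWD21 and 22.04 CPM at PWD28 (PWD21 against PWD0, log2 fold change 1.54, SE 0.34, FDR = 0.0126). Top2a was at 10.9 and 16.5 CPM at PWD0, 27.6 CPM at PWD14, 77.3 and 62.5 CPM at PWD21 and 45.3 CPM at PWD28 (2.26, SE 0.30, FDR = 0.00169). Every wound library lay above both PWD0 libraries for both genes.

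Large differences at PWD21 were those of Mcm10 (3.06, SE 0.89), Kif20a, a motor of the central spindle (2.96, SE 0.37), and Anln, an actin-binding protein of the cleavage furrow (2.94, SE 0.40). Kif20a was at 4.41 and 3.53 CPM at PWD0 and 32.4 and 34.6 CPM at PWD21, and Anln at 2.12 and 3.67 CPM against 21.8 and 25.3 CPM. Mcm10 was at 0 counts and 0.882 CPM at PWD0, so its fold change rests on few reads, and at 3.51 and 4.66 CPM at PWD21. None of the 3 overlapped between the days.

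Plk1 was at 2.12 and 5.14 CPM at PWD0, 15.2 CPM at PWD14, 26.3 and 22.8 CPM at PWD21 and 20.6 CPM at PWD28. Foxm1 was at 1.76 and 4.70 CPM at PWD0, 13.9 CPM at PWD14, 16.2 and 27.3 CPM at PWD21 and 18.3 CPM at PWD28. Kif11 was at 5.11 and 5.29 CPM at PWD0, 6.71 CPM at PWD14, 30.3 and 24.1 CPM at PWD21 and 19.99 CPM at PWD28. At PWD14, Kif11 was closer to unwounded skin than to the later wounds.

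Cdk1 was at 14.3 and 19.4 CPM at PWD0, 75.5 CPM at PWD14, 71.9 and 51.4 CPM at PWD21 and 38.5 CPM at PWD28. Bub1 was at 2.82 and 10.1 CPM at PWD0, 31.9 CPM at PWD14, 28.6 and 21.2 CPM at PWD21 and 16.1 CPM at PWD28. Both were highest in the PWD14 library. Racgap1 was at 4.76 and 5.88 CPM at PWD0, 9.18 CPM at PWD14, 19.9 and 21.98 CPM at PWD21 and 20.1 CPM at PWD28, and Mcm5 at 21.2 and 20.9 CPM at PWD0, 25.8 CPM at PWD14, 46.6 and 42.2 CPM at PWD21 and 38.6 CPM at PWD28. Rrm2 was at 4.23 and 11.8 CPM at PWD0, 5.77 CPM at PWD14, 26.3 and 28 CPM at PWD21 and 15.2 CPM at PWD28, and E2f1 at 8.47 and 14.8 CPM at PWD0, 23.1 CPM at PWD14, 26.6 and 30.4 CPM at PWD21 and 20.4 CPM at PWD28. For these 4 the highest library was one of PWD21, and neither PWD21 library overlapped PWD0. Ccnb1 was at 1.23 and 0.441 CPM at PWD0, 1.53 CPM at PWD14, 0.730 and 0.921 CPM at PWD21 and 1.85 CPM at PWD28, with overlap between PWD0 and PWD21.

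Some replication genes did not follow. Rrm1 was at 97.5 and 146 CPM at PWD0 and 108 and 89.98 CPM at PWD21 (-0.39, SE 0.27, FDR = 0.316), Pcna at 48.5 and 42.9 CPM against 31.7 and 23.5 CPM (-0.85, SE 0.31, FDR = 0.0739), and Tyms, which makes thymidylate, at 21.2 and 18.5 CPM against 21.6 and 16.6 CPM. Pcna was higher in both PWD0 libraries without passing the test. Tpx2, which nucleates spindle microtubules, was at 74.8 and 142 CPM against 119 and 112 CPM (0.02, SE 0.30, FDR = 0.962), and its days overlapped, as did those of Rrm1.

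At PWD14, 18 members were called higher than at PWD0 and none lower, beside 7.95% of all 15344 genes called higher and 10.5% lower, in a fit of all 6 dermis libraries in which the lone PWD14 library is assumed to vary like the other days, so the calls have no replicate at PWD14. The median was 1.25 against -0.05 for all genes. Of the mitotic cyclins and anaphase factors 5 of 6 were called and of cytokinesis 0 of 3. Cdt1, a licensing factor, was at 0.882 and 0.441 CPM at PWD0 and 6.95 CPM at PWD14 (3.62, SE 0.69). Its PWD0 levels stand for 5 and 3 counts, so its fold change rests on few reads. Ccnb2 was at 15.7 and 14.99 CPM against 81.2 CPM (2.62, SE 0.35), and among the members called Bub1 came next (2.57, SE 0.56). Cenpa, the histone of the centromere, had a larger value without passing the test (3.40, SE 1.28, FDR = 0.0911). Both comparisons share the PWD0 libraries.

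Unwounded dermis also held 9755 and 5625 CPM of 7 basal and 16083 and 9549 CPM of 4 wound keratinocyte markers, against 524 to 1981 CPM and 513 to 1869.8 CPM in the wound dermis. Its 5 adipocyte markers summed to 140.2 and 159 CPM, against 0.706 to 4.17 CPM. Their part in the result was not tested. Without PWD21 replicate 1 the PWD21 count was 11 and without replicate 2 it was 12, all higher, beside 4.71% and 3.66% of all genes.

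In spiny mouse epidermis members were called in both directions, as were all genes. Between PWD14 and PWD21, 7 were higher at PWD14 and 19 lower, 14% and 38% of the members, beside 23.4% of all 12889 genes called higher and 23.2% lower. The member median was -0.43 and the all-gene median -0.04. The lower members included 3 of 3 cytokinesis genes, 5 of 8 spindle proteins and 7 of 12 licensing genes, and 3 of 6 mitotic cyclins and anaphase factors were higher. Scaled by library size alone, the all-gene median was -0.59 and the calls were 1 higher and 32 lower, beside 10.4% and 44.4% of all genes, so the higher calls are relative to the typical gene. Without PWD21 replicate 1 there were 3 higher and 11 lower, beside 17.3% and 17.4% of all genes. Without PWD21 replicate 2 there were 2 higher and 9 lower, beside 13.2% and 12.8% of all genes.

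Ccne2, a cyclin of S phase entry, was at 0 counts and 0.702 CPM at PWD14 and 4.23 and 5.94 CPM at PWD21 (-3.13, SE 0.68, FDR = 0.00350). Kif11 was at 15.01 CPM at PWD0, 3.02 and 1.60 CPM at PWD14, 15.6 and 22.3 CPM at PWD21 and 25.1 CPM at PWD28 (-2.50, SE 0.37, FDR = 3.85e-04). Rrm2 was at 11.4 CPM at PWD0, 2.64 and 1.66 CPM at PWD14, 12.2 and 20.8 CPM at PWD21 and 15.8 CPM at PWD28 (-2.38, SE 0.40, FDR = 8.01e-04). For all 3, both PWD14 libraries lay below every other epidermis library.

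The higher members were Ccnb1 (1.43, SE 0.41), Birc5, the survivin of the chromosomal passenger complex (1.32, SE 0.27), Pcna (1.001, SE 0.17), Tyms, Cdc45, Ccnb2 and Ube2c. Birc5 was at 3.02 CPM at PWD0, 14.03 and 11.2 CPM at PWD14, 6.68 and 8.22 CPM at PWD21 and 3.90 CPM at PWD28. Pcna was at 33.1 CPM at PWD0, 57.5 and 63.2 CPM at PWD14, 44.9 and 43.4 CPM at PWD21 and 43.6 CPM at PWD28, and Ccnb1 at 0.850 CPM at PWD0, 2.79 and 2.94 CPM at PWD14, 1.45 and 1.71 CPM at PWD21 and 1.74 CPM at PWD28. For these 3, both PWD14 libraries were above every other epidermis library in CPM as well. Ccnb2 and Ube2c, also called higher, overlapped between PWD14 and PWD21 in CPM.

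Mki67 was at 27.8 CPM at PWD0, 18.99 and 20.4 CPM at PWD14, 38.3 and 39.3 CPM at PWD21 and 42.3 CPM at PWD28 (PWD14 against PWD21, -0.43, SE 0.19, FDR = 0.0889). Plk1 was at 15.01 CPM at PWD0, 11.7 and 9.76 CPM at PWD14, 25.01 and 31.2 CPM at PWD21 and 20.3 CPM at PWD28 (-0.83, SE 0.24, FDR = 0.0138), and Racgap1 at 19.7 CPM at PWD0, 6.59 and 11.3 CPM at PWD14, 20.9 and 24.9 CPM at PWD21 and 27.4 CPM at PWD28 (-0.79, SE 0.27, FDR = 0.0321). For all 3 both PWD14 libraries were the lowest in CPM, and Plk1 and Racgap1 passed the test between PWD14 and PWD21. Against PWD0 the fitted log2 fold changes, with TMM scaling, were 0.23 for Mki67, 0.23 for Plk1 and -0.41 for Racgap1. The CPM order against unwounded skin was therefore not kept for Mki67 and Plk1. Top2a was at 35.7 CPM at PWD0, 38.4 and 26.7 CPM at PWD14, 40.1 and 49.1 CPM at PWD21 and 68.3 CPM at PWD28 (0.10, SE 0.22, FDR = 0.728), and Cdk1 at 25.2 CPM at PWD0, 36.04 and 40.97 CPM at PWD14, 51.1 and 62.7 CPM at PWD21 and 62.4 CPM at PWD28 (-0.01, SE 0.18, FDR = 0.979). Neither passed the test. Mcm5 was at 28.99 CPM at PWD0, 30.5 and 32.5 CPM at PWD14, 62.96 and 64.1 CPM at PWD21 and 44.1 CPM at PWD28, with an FDR of 0.0503.

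Bub1 was at 15.6 CPM at PWD0, 21.2 and 19.6 CPM at PWD14, 20.1 and 24.2 CPM at PWD21 and 32.5 CPM at PWD28. Foxm1 was at 20.5 CPM at PWD0, 8.53 and 5.62 CPM at PWD14, 12.8 and 13.2 CPM at PWD21 and 30.7 CPM at PWD28, and E2f1 at 7.08 CPM at PWD0, 5.27 and 4.08 CPM at PWD14, 9.10 and 8.28 CPM at PWD21 and 9.13 CPM at PWD28. Both transcription factors were lowest in the PWD14 libraries in CPM, and Bub1 was highest at PWD28. Against PWD0 the fitted log2 fold change was -0.83 for Foxm1 and 0.11 for E2f1, so the order of E2f1 changed with the scaling.

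Against unwounded epidermis, 13 members were called higher at PWD14 and 9 lower, beside 22.7% and 26.1% of all 14336 genes, in a fit of all 6 epidermis libraries in which the lone PWD0 library is assumed to vary like the other days, so the calls have no replicate at PWD0. The member median was 0.23 and the all-gene median -0.15. Scaled by library size alone, where the all-gene median was -0.87, 6 were called higher and 18 lower, beside 11.6% and 44.4% of all genes. Ccne1 was at 3.49 CPM at PWD0 and 19.1 and 15.95 CPM at PWD14 (3.04, SE 0.38), and Ccne2, which shares its kinase partner Cdk2, at 4.25 CPM against 0 counts and 0.702 CPM (-2.74, SE 0.87). Prc1 was at 19.7 CPM against 1.16 and 4.28 CPM (-2.09, SE 0.47). Anln was at 19.3 CPM against 3.33 and 1.40 CPM (-2.34, SE 0.43), and Birc5 (2.77, SE 0.44) and Ccnb1 (2.46, SE 0.69), with their levels given above, were among those called higher. Both comparisons share the PWD14 libraries.

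Transcript length moved with these calls. With members split at the median length of their longest mouse transcript, the 25 shorter ones (1518 to 3494 bases) had 6 higher and 7 lower calls between PWD14 and PWD21 and the 25 longer ones (3526 to 11130 bases) 1 higher and 12 lower, with medians of 0.14 and -0.57. Against PWD0 the shorter had 10 higher and 3 lower and the longer 3 higher and 6 lower. Spearman's rho between length and log2 fold change was -0.38 over the 50 members and -0.22 over 12566 genes between PWD14 and PWD21, and 0.29 and 0.35 (over 14129 genes) for PWD21 against PWD0 in the dermis. These describe genes of the same libraries. With offsets for length and GC content, an alternative chosen after seeing the data, the calls were 10 higher and 11 lower between PWD14 and PWD21, beside 27.6% and 18.3% of all genes. They were 32 higher and 0 lower between PWD21 and PWD0 in the dermis, beside 11.2% and 13.5%.

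**Figure D5:**
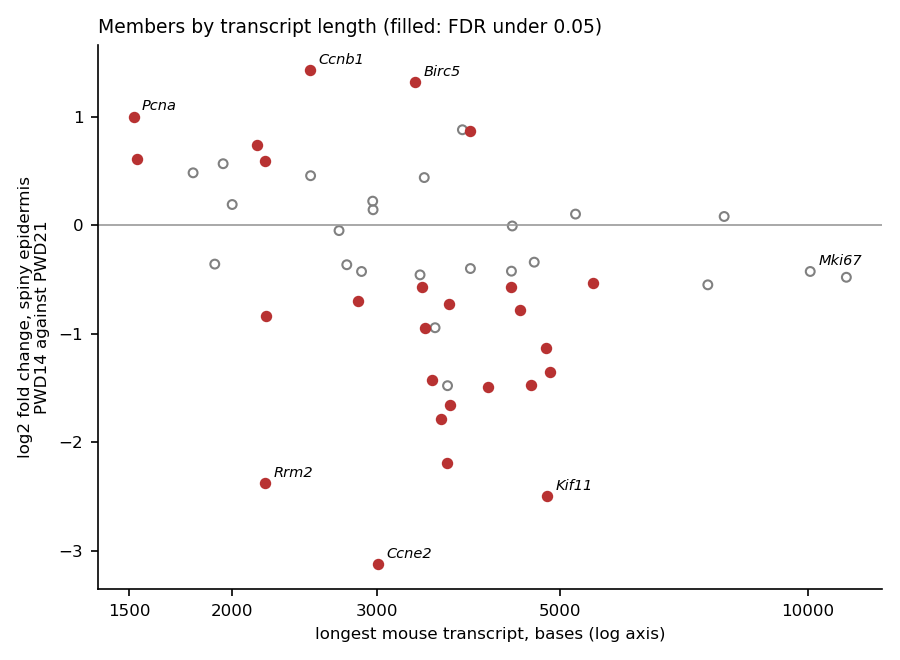
Log2 fold change of PWD14 against PWD21 in spiny mouse epidermis (vertical axis) against the length of the longest mouse transcript of each of the 50 members (horizontal axis, log scale), filled where the FDR was under 0.05. Of the 19 members lower at PWD14, 12 are among the 25 longer transcripts, and of the 7 higher ones 6 are among the 25 shorter.

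By day, the highest mean CPM fell on PWD28 for 29 of 50 members in the epidermis, on PWD21 for 13, on PWD14 for 6 and on PWD0 for 2. In the dermis it fell on PWD21 for 29, on PWD14 for 11, on PWD28 for 8 and on PWD0 for 2, Pcna and Rrm1. With TMM scaling the epidermal counts were 13 for PWD28, 24 for PWD21, 12 for PWD14 and 1 for PWD0, so the most frequent day in the epidermis changed with the scaling. PWD28 is a single library in each layer, with 26611 CPM (epidermis) and 35837 CPM (dermis) of hair matrix and root sheath markers against 42.2 to 5194 CPM on the other days. Their part in the result was not tested.

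Between the layers of the spiny mouse at PWD21, 6 members were higher in the epidermis and 3 lower, beside 29.4% and 33.5% of all 14966 genes, with medians of 0.09 and -0.06. Scaled by library size alone, 2 were higher and 6 lower, beside 26.6% and 36.6%. The count of 9 became 3 without epidermis replicate 1, 5 without epidermis replicate 2 and 14 without dermis replicate 1. Kif23, a partner of Racgap1 in the central spindle, was at 58.9 and 71.4 CPM in the epidermis and 28.7 and 29.6 CPM in the dermis (1.27, SE 0.20, FDR = 9.71e-04). E2f1 was at 9.10 and 8.28 CPM against 26.6 and 30.4 CPM (-1.59, SE 0.24, FDR = 9.43e-04). Neither overlapped between the layers. Birc5 (0.87, SE 0.28) and Pcna (0.81, SE 0.22) were also higher. Anln (-1.21, SE 0.24) and Top2a (-0.53, SE 0.20, FDR = 0.0497) were also lower in the epidermis. With the length and GC offsets the value of Top2a was 0.15, and 19 members were higher and 3 lower, beside 40.9% and 29.2% of all genes.

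Of the other genes of the cycle, 86 were listed and 85 found. In the epidermal center against margin edgeR called none, 36 were lower and 2 higher at an unadjusted p under 0.05, beside 10.4% and 13.1% of all genes, and the median was -0.88. In spiny mouse dermis at PWD21 against PWD0, 31 of 83 tested rose, 17 of them among 29 other mitosis genes, and 2 fell, beside 12% of all genes called higher and 14.2% lower. Those that fell were CDK inhibitors, Cdkn1a (p21), at 59.8 and 111 CPM at PWD0 and 22.7 and 34.6 CPM at PWD21 (-1.64, SE 0.35, FDR = 0.0117), and Cdkn2b (p15, -1.81, SE 0.47, FDR = 0.0249). Both were higher in the epidermis than in the dermis of the spiny mouse at PWD21 (3.09 and 3.13). The part of the keratinocyte markers of unwounded dermis, given above, in these falls was not tested. Of the other inhibitors Cdkn1c (p57) rose, at 72.3 and 64.95 CPM at PWD0 and 195 and 186 CPM at PWD21 (1.35, SE 0.28, FDR = 0.0105), and so did Cdkn2c (p18, 1.07, SE 0.28, FDR = 0.0246).

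Cdkn1a separated the layers in both species. It was at 518 and 537 CPM in the laboratory mouse wound center epidermis and 31.01 to 63.3 CPM in the dermis (4.11, SE 0.27, FDR = 5.81e-06), and at 219.6 and 233 CPM against 22.7 and 34.6 CPM in the spiny mouse at PWD21 (3.09, SE 0.27, FDR = 5.65e-05). Cdkn1c had the opposite order, with log2 fold changes of -5.63 and -5.90. In the margin of the laboratory mouse epidermis Cdkn1a was at 216 and 267 CPM, below both center libraries (1.03, SE 0.21, FDR = 0.0846), and Cdkn1b (p27) was at 49.5 and 45.2 CPM in the center and 253 and 92.2 CPM in the margin (-1.997, SE 0.51, FDR = 0.120). Neither passed the test.

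The D cyclins link growth signals to the cycle. In spiny mouse epidermis at PWD14 against PWD21, Ccnd1 was higher (0.81, SE 0.18, FDR = 0.00426) and Ccnd2 (-1.37, SE 0.21, FDR = 4.58e-04) and Ccnd3 (-0.82, SE 0.24, FDR = 0.0160) lower. Ccnd2 was at 141 CPM at PWD0, 16.8 and 14.5 CPM at PWD14, 52.8 and 66.8 CPM at PWD21 and 133 CPM at PWD28, lowest in both PWD14 libraries. In the laboratory mouse epidermis Ccnd1 was at 54.4 and 64.8 CPM in the center and 59.3 and 63.1 CPM in the margin, with overlap. E2f8, an atypical E2F, was higher in the laboratory mouse wound center epidermis than in the dermis (3.26, SE 0.37, FDR = 8.42e-05), at 46.8 and 56.8 CPM and 4.84 to 12.4 CPM, the opposite order to E2f1.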

How the data were processed

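RNA was sequenced from separated epidermis and dermis in 25 libraries. Per the labels and the study's methods, the authors aligned reads with STAR to the mouse genome mm10, spiny mouse reads included, and deposited raw read counts per gene made with HTSeq. The submitters' processing notes name STAR 2.4.1d and HTSeq 0.6.0, and the strand setting of the counting is not given in the sources used here. The 5 summary lines that follow the 24500 gene rows of a file entered neither library sizes nor tests.

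CPM were computed from all gene rows. Counts were tested with edgeR 4.0.16 (limma 3.58.1, R 4.3.3) by the quasi-likelihood test, with TMM scaling, filterByExpr, a prior count of 0.125 and Benjamini-Hochberg adjustment over all genes tested, at an FDR of 0.05. Fold changes are log2 with their standard error (SE). Groups came from the labels, and 10 comparisons were made. The study calls its laboratory mouse replicates independent experiments. Its reporting summary names independent duplicates for bulk RNA-seq without naming a species, although some spiny mouse days hold a single library. No source used here ties a library to an animal. For the spiny mouse, p-values are taken to measure only the spread between these samples. The 50 members and the other gene lists were chosen with earlier results of these data known. Values of every library are given for 12 set members and for up to 3 members called with the largest absolute log2 fold change in each direction of a comparison. Rrm1, Pcna, Tyms and Tpx2 in spiny mouse dermis were singled out after their values were seen, and other genes of the cycle were named from the D cyclins, CDK inhibitors and other E2F. Alternatives were RLE size factors, library size alone, other count filters, DESeq2 1.42.0, the likelihood ratio test, the older edgeR 3 estimate, other sets of libraries and leaving out each library. Offsets for transcript length and GC content were chosen after seeing the data. The fits were tested on simulated data: of genes simulated with a log2 fold change of 1.5 they recovered 55% among 14165 genes for the epidermal region, 25% among 14163 for the KO and 97% among 12889 for spiny mouse epidermis PWD14 against PWD21. For the interaction they recovered 11% among 15531 genes. Each simulation changed 200 genes, none of low level, and gave genes of like level the same spread. These shares may therefore overstate recovery in the data. Levels were tabulated in Python 3.11.15 with pandas 2.3.3 and plotted with matplotlib 3.10.9.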

Additional observations from a re-analysis of the deposited data

Results flagged for a closer look

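Among the 5 wild-type wound center dermis libraries, Racgap1 was at 65.6 CPM in replicate 5, far above the other 4, and Foxm1 was at 4.997 CPM in replicate 2, far below the other 4. These came from 15 values examined with Dixon's criterion, which chance meets for about 1 in 20 groups. The center-margin log2 fold change differed between epidermis and dermis for Mki67 (-2.40) and Prc1 (-1.69) by the interaction term of the edgeR fit.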

How the results depend on the processing

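In the epidermal center against margin, where 1 member was called, library size alone, the edgeR 3 estimate and the length and GC offsets gave 0, DESeq2 24 and the likelihood ratio test 22. In the dermal region DESeq2, the likelihood ratio test and the offsets each gave 1 instead of 0. For the interaction, DESeq2 gave 6, the likelihood ratio test 4 and the offsets 12 instead of 2. For the spiny mouse layers the offsets gave 22 instead of 9. Leaving out 1 library at a time gave 0 to 47 calls for the epidermal region (47 without margin replicate 1, 25 without margin replicate 2, 0 without either center library), 0 in each case for the dermal region, 0 to 18 for the interaction (18 without margin epidermis replicate 1), 0 to 13 for the KO (13 without KO replicate 1), 17 to 36 for the laboratory mouse layers (17 and 19 without epidermis replicates 1 and 2), 11 to 31 for spiny mouse epidermis PWD14 against PWD21 (14 and 11 without PWD21 replicates 1 and 2), 20 to 25 for PWD14 against PWD0, 11 to 35 for spiny mouse dermis PWD21 against PWD0 (11 and 12 without PWD21 replicates 1 and 2), 13 to 24 for PWD14 against PWD0, and 3 to 14 for the spiny mouse layers (3 and 5 without epidermis replicates 1 and 2, 14 without dermis replicate 1). With TMM scaling, the members highest at PWD0, 14, 21 and 28 numbered 1, 12, 24 and 13 instead of 2, 6, 13 and 29 in the epidermis, and 1, 22, 26 and 1 instead of 2, 11, 29 and 8 in the dermis. With the offsets, 2 single genes changed sign, Cdk1 for PWD14 against PWD21 in spiny mouse epidermis (0.43) and Top2a between the spiny mouse layers (0.15). Apart from what the construction of each alternative fixes, the cause was not tested. No paired analysis was possible because the labels give no replicate numbers shared between groups. By the study's methods a wound gave both its center and its margin, and both layers, so libraries may share wounds, but nothing ties a library to its wound. Single libraries of PWD0, PWD14 and PWD28 limit the days of the spiny mouse.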
